A study of Mus musculus with 3 samples.

Results

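Within mouse spleen cells enriched for dendritic cells, 1126 barcodes carried RNA of Ms4a2, Hdc, Bex4 or C1qtnf12. They stayed under set limits for genes of later red cells and of dendritic and B cells. They are called Ms4a2/Hdc cells here. They were chosen by their RNA: at least 500 genes, at most 10% mitochondrial unique molecular identifiers (UMIs, each a counted RNA molecule), a top hashtag count at least 2 times the second, at least 5 UMIs of the 4 genes together, fewer than 5 of Slc4a1, Alas2 and Rhd together, fewer than 20 of H2-Ab1, at most 1 of Siglech and of Cd79a, and 0 of Xcr1 and Clec9a. They made up 3.88% of the 29012 barcodes that passed the gene, mitochondrial and hashtag filters, out of 38717 deposited. Under these limits, 81.2% of the cells still had a UMI of Rhd and 87.6% a UMI of H2-Ab1. Because RNA chose these cells, their gene levels beside other cells are a description and carry no test.

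The cells came from spleens of C57BL/6 mice, either leukemia-bearing (AML in the hashtag names) or wild type (WT), given panobinostat (LBH), a histone deacetylase inhibitor, or vehicle (D5W) for 2 days. Per the labels, spleen cells were enriched on Optiprep, cells without GFP were sorted, and a pan-dendritic kit then removed other lineages magnetically. The 6 tagged samples shared 1 capture: leukemia panobinostat 1 and 2, leukemia vehicle 1 and 2, WT panobinostat and WT vehicle. The labels do not state whether each is a separate animal or what drives the leukemia, and a p-value across them measures only the spread between these samples.

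Red cells, mast cells and basophils share early ancestors in the marrow and, in mice, in the spleen. GATA2 marks those ancestors and mast cells, and GATA1 and KLF1 drive the red cell program that ends in hemoglobin. Ms4a2 encodes the beta chain of the high-affinity IgE receptor and Hdc the enzyme that makes histamine, both known from mast cells and basophils. Car1 encodes a carbonic anhydrase that is abundant in early red cell precursors.

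One tag stood apart, and it bears on each comparison below. Ms4a2/Hdc cells assigned to other samples had a median of 28 counts of the leukemia vehicle 2 hashtag, against 5 in other barcodes and 5 in barcodes with at least 10 Siglech UMIs (Siglech barcodes) assigned to other samples. That median was 6, 7, 38 and 58 in cells with a marker sum (UMIs of the 4 rule genes) of 5 to 9, 10 to 19, 20 to 39 and 40 or more. The other 5 hashtags had medians between 7 and 25 over the same bins in cells not assigned to them. The leukemia vehicle 2 hashtag ranked second in 49.0% of the 628 Ms4a2/Hdc cells assigned elsewhere and in 6.81% of the other barcodes. Among the 498 cells labelled leukemia vehicle 2, its median was 75 counts, against 352 in the remaining barcodes of that sample, and 399 of the 498 did not exceed 99, the 95th percentile of the cells assigned elsewhere. Neighbours of that label (defined below with the hemoglobin levels) had a median of 73 counts of it. How many cells bear this label for lack of a stronger tag was not tested. Shares, gene calls for treatment or disease, and counts by list of genes above and below 0 are therefore given with and without that sample. Fold changes of single genes are given without it only where stated. A value pooled over cells is also given without it where it moved by over 1.5 times. Of 1950 barcodes that met the gene limits, 824 had no single tag, and in 383 of those the leukemia vehicle 2 hashtag was on top.

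**Figure D1:**
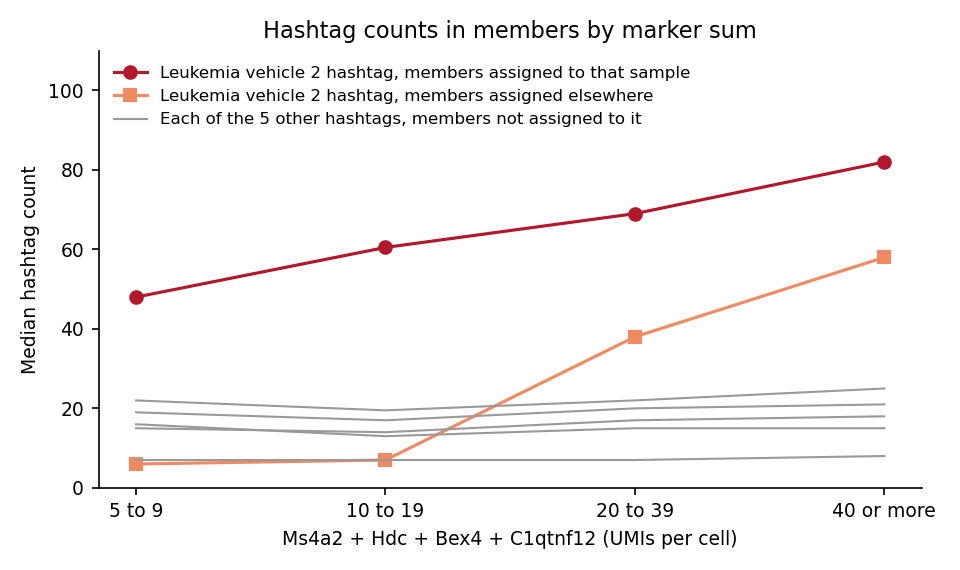
Median hashtag count (y axis) in Ms4a2/Hdc cells binned by the UMIs of the 4 rule genes (x axis). The leukemia vehicle 2 hashtag reached 58 counts in the top bin of cells assigned elsewhere and 82 in cells assigned to it, while the 5 other hashtags (grey) lay between 7 and 25.

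The cells were deep. The median was 14756.5 UMIs per Ms4a2/Hdc cell, against 7466 in all other barcodes and 5520.5 in the 1674 Siglech barcodes. Levels are therefore given as CPM, the UMIs of a gene scaled to all UMIs summed over a group of cells, and shares of cells with a UMI after thinning each cell to 2000 UMIs. A simulated-doublet score marked 131 Ms4a2/Hdc cells (11.6%), against 16.3% of all passing barcodes, but the samples differed. It marked 7 of the 498 cells of leukemia vehicle 2 (1.41%) and between 10.7 and 31.2% in the other 5 samples. It marked 19.7% of Ms4a2/Hdc cells without leukemia vehicle 2, against 16.9% of all passing barcodes.

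All 4 rule genes were detected together in 839 of the 1126 cells, and 12 cells met the limit through 1 gene alone. The marker sum had a median of 35 UMIs and ranged between 5 and 149. Ms4a2 (chromosome 19, 11615523 to 11623719, minus strand, GRCm38) had 357 and 333 CPM in leukemia panobinostat cells and 263 CPM in WT panobinostat cells, against 262 and 452 CPM in leukemia vehicle cells and 319.6 CPM in WT vehicle cells. The cells labelled leukemia vehicle 2 were highest, and the treatment groups overlapped. Hdc (chromosome 2, 126593667 to 126619299, minus strand) had 330.0 and 300.5 CPM in leukemia panobinostat, 237 CPM in WT panobinostat, 303 and 338 CPM in leukemia vehicle and 254 CPM in WT vehicle cells. The rule used both genes, so their levels are a description. Bex4 (chromosome X, 136138996 to 136140443, plus strand), which encodes a small adaptor-like protein, ranged between 921 and 1135 CPM over the 6 samples. C1qtnf12 (chromosome 4, 155962318 to 155966629, plus strand), which encodes a secreted C1q/TNF-related protein, ranged between 544 and 823 CPM. Car1 (chromosome 3, 14766216 to 14808368, minus strand), which the rule did not use, ranged between 1196 and 1785 CPM.

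At 2000 UMIs a cell, Ms4a2 was found in 47.0% of Ms4a2/Hdc cells and in 2.51% of Siglech barcodes, set beside them as a guide to free RNA. Siglech barcodes are cells with RNA of their own (Ptprc at 532 CPM, H2-Ab1 at 3118 CPM). For genes high in them they are no such guide. Hdc was found in 39.1% against 2.09%, and Car1 in 87.7% against 6.81%. Just inside the limit of 5 marker UMIs, 29 cells had 73.8 CPM of Ms4a2 and 1147 CPM of Car1, and just outside it, 21 cells with a sum of 4 had 149 CPM of Ms4a2 and 817 CPM of Car1.

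The 250 bases before the start sites of 3 of these genes are shown because GATA factors, whose genes were detected here, bind short words that can be searched for in them. The letters come from RefSeq (GRCm38.p6), and capitals mark AGATAA or TGATAA on either strand. The windows are chr19:11623720-11623969 (minus), chr2:126618679-126618928 (minus) and chrX:136138746-136138995 (plus). The Hdc window lies inside the gene span printed above, so the RefSeq start differs from the end of that span. The count of words for Hdc depends on which start is used.
Ms4a2: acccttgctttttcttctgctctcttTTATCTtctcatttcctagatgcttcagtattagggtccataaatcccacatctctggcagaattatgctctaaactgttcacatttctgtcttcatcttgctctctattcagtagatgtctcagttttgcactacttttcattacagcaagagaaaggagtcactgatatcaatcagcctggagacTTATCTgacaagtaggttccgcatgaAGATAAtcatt
Hdc: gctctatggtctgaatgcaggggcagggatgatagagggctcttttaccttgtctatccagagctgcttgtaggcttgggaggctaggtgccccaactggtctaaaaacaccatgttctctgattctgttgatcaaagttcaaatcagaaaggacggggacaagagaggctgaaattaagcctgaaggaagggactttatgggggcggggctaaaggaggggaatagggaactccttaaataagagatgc
Bex4: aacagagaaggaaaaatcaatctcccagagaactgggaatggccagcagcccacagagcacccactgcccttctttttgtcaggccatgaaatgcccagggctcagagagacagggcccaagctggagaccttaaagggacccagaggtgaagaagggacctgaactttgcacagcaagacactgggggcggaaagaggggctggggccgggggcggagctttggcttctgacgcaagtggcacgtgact
The Ms4a2 window holds 3 such words, which begin 224, 37 and 11 bases before the start, and the Hdc and Bex4 windows hold 0. Of 32851 promoter windows of this length in the table, 16.6% hold at least 1. By gene, 18.8% of all 27025 genes have a window with a word, as do 15 of 38 genes of the mast and basophil list, 14 of 25 of the erythroid list and 3 of 13 of the dendritic list. A match is not a shown binding site, and a window without one says nothing of the factor. C1qtnf12 and Car1 are named only.

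Genes of the red cell lineage were present throughout. Of the 31 erythroid genes that the rule did not use, 30 reached 5 CPM and 21 were at least 2 times the level in all other barcodes, where 17.7% of all genes at 5 CPM reached that ratio. Gata1 stood at 85.2 CPM in Ms4a2/Hdc cells, against 7.86 CPM in Siglech barcodes, and Klf1 at 109 against 10.9 CPM. Epor, the erythropoietin receptor, stood at 43.1 against 4.85 CPM. Rhag, the Rh-associated glycoprotein, stood at 88.0 against 11.9 CPM. Car2 stood at 1988 against 185 CPM. The samples were close for these regulators: Gata1 ranged between 76.7 and 90.7 CPM, and Klf1 between 96.1 and 116 CPM. The pan-leukocyte gene Ptprc (CD45) stood at 37.4 CPM in Ms4a2/Hdc cells, against 532 CPM in Siglech barcodes. It was 13.3 CPM in leukemia vehicle 2, and without that sample it stood at 59.9 CPM in Ms4a2/Hdc cells, against 539 CPM in Siglech barcodes.

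Hemoglobin was low by the standard of red cells. Hba-a1 stood at 3714 CPM in Ms4a2/Hdc cells. It stood at 16028 CPM in 1127 neighbours, which met the same limits except for 5 or more UMIs of Slc4a1, Alas2 and Rhd. It stood at 65148 CPM in 223 barcodes with those genes and a marker sum under 5 (late erythroid barcodes), and at 636 CPM in Siglech barcodes. Per cell at 2000 UMIs, the 4 hemoglobin genes together had a median of 14 UMIs in Ms4a2/Hdc cells, 87 in neighbours, 594.5 in the late erythroid barcodes and 2 in Siglech barcodes. Of the 31 erythroid genes, 0 were at least 2 times and 10 at most 0.5 times the level in neighbours. Among all genes at 5 CPM, 0.957% and 0.385% reached those ratios.

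Progenitor genes were mixed. Of 25 on the list, 10 reached 5 CPM. The list summed to 930 CPM in Ms4a2/Hdc cells, 833 CPM in neighbours and 427 CPM in Siglech barcodes, so the neighbours carried nearly as much. Lmo2 (217 CPM), Runx1 (198), Myb (149), Gata2 (130), Zfpm1 (79.1) and Tal1 (75.6), regulators of blood progenitors and early red cells, were the 6 highest, and Kit, the stem cell factor receptor, had 41.4 CPM. Of the genes of earlier stem and multipotent cells, Cd34 had 2.54 CPM and Mecom 0.0604 CPM. Flt3, a receptor of multipotent and dendritic progenitors, had 5.79 CPM (9.10 CPM without leukemia vehicle 2), against 59.96 CPM in Siglech barcodes.

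Genes tied to leukemia gave no clear picture. Of the 17 on that list, 13 reached 5 CPM, and 5 were at least 2 times and 6 at most 0.5 times the level in all other barcodes. Among all genes at 5 CPM, 17.7% and 8.39% reached those ratios, while the 17 include genes under 5 CPM. The 17 summed to 1262.5 CPM in Ms4a2/Hdc cells, against 1233 CPM in the others. Meis1 and Hoxa9, which are often high in acute myeloid leukemia, had 1.03 and 0.362 CPM, against 7.53 and 2.59 CPM in Siglech barcodes. They had 1.75 and 0.583 CPM without leukemia vehicle 2, against 7.24 and 2.29 CPM. Meis1 and Hoxa9 do not stand for the list, since the 5 genes at least 2 times others are not among them. The cells were also found in both WT samples, 159 with panobinostat and 287 with vehicle, and 38 and 156 of these had a top hashtag at least 5 times the second. Because WT spleens held them, the population as a whole is not called leukemic. Whether leukemic cells are among the cells from leukemia-bearing mice was not tested, and no cell type name is given.

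Mast and basophil genes split. Of the 41 on the list that the rule did not use, 19 reached 5 CPM and 2 had no UMI. The neighbours shared part of this RNA: the 41 genes summed to 2598 CPM in Ms4a2/Hdc cells and 1842 CPM in neighbours. Il1rl1, the IL-33 receptor, stood at 169 CPM against 15.7 CPM in Siglech barcodes. It stood at 166 CPM in neighbours with 5 UMIs of Slc4a1, Alas2 and Rhd, and at 116 CPM in those with 20 or more. Cd200r3 stood at 71.6 CPM in neighbours. Cd200r3, an activating receptor of basophils and mast cells, stood at 105 against 9.70 CPM, Il4 at 49.3 against 5.85 CPM, and Alox5, the leukotriene-forming lipoxygenase, at 43.6 against 4.27 CPM. Srgn, the proteoglycan core that packs granules, stood at 1696 against 802 CPM. Genes of mature granules and Fcer1a of the IgE receptor did not follow. Cpa3 had 18.0 CPM, Cma1 14.1, Mcpt8 3.86, Mcpt4 4.83 and Fcer1a 2.72 CPM. Fcer1g, also of that receptor, had 58.7 CPM against 1150 CPM in Siglech barcodes. It is high in those barcodes, so they do not show how much of it free RNA can give. Leukemia vehicle 2 was lowest for Fcer1g (15.3 CPM, against 49.8 to 192 CPM in the other 5 samples) and had 0 CPM of Mcpt8. Without it Fcer1g stood at 99.2 CPM, Mcpt8 at 7.46 CPM and Mcpt4 at 9.21 CPM.

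**Figure D2:**
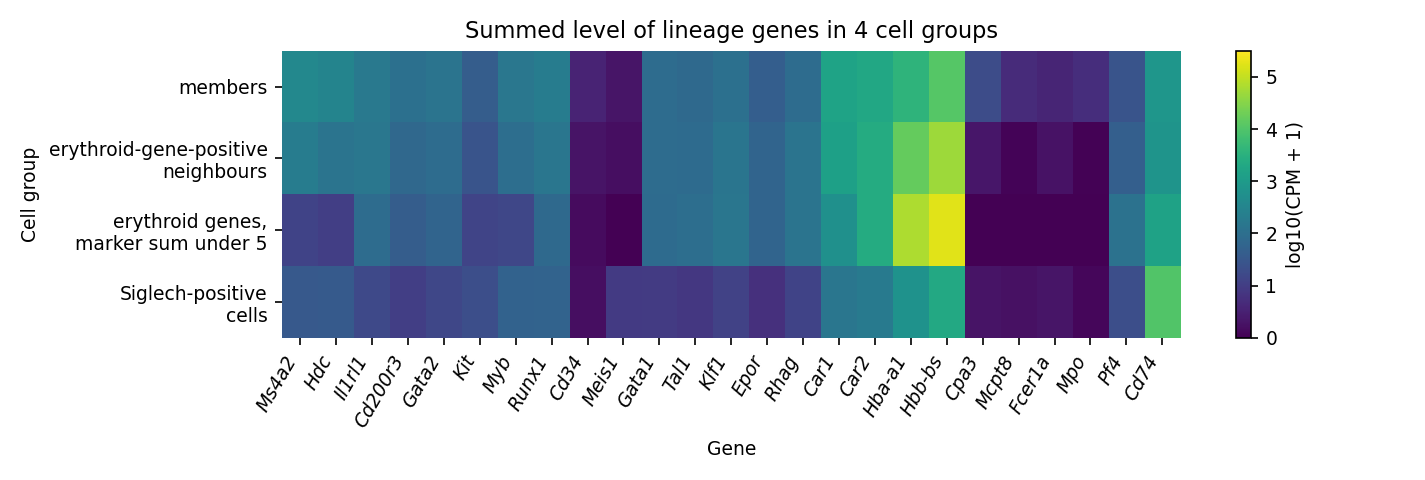
Level of lineage genes (x axis) in 4 groups of cells (rows), as log10(CPM + 1) of summed UMIs. Gata1 stood at 85.2 CPM in Ms4a2/Hdc cells and 87.2 CPM in the neighbours, while Hba-a1 stood at 3714 and 16028 CPM, and Cd34, Meis1 and Fcer1a were under 5 CPM in the Ms4a2/Hdc cells.

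Most of the granule RNA lay in few cells. A subset of 31 cells (2.75%) with at least 5 UMIs of 10 granule genes, a limit set after the values were seen, held 750 of the 1000 UMIs of those genes. In the subset Cpa3 stood at 1094 CPM, Mcpt8 at 231 CPM, Hdc at 1202 CPM, Gata2 at 401 CPM and Car1 at 640 CPM. In the other 1095 cells Cpa3 stood at 2.08 CPM, Mcpt8 at 0.490 CPM, Hdc at 287 CPM, Gata2 at 126 CPM and Car1 at 1584 CPM. Cpa3 and Mcpt8 are among the 10 granule genes, so their gap follows largely from the limit. Median depth was 6686 UMIs in the subset and 14968 UMIs in the other cells. The subset held 0 and 3 leukemia panobinostat cells, 1 WT panobinostat cell, 8 and 12 leukemia vehicle cells and 7 WT vehicle cells. It also carried Ccl3 (1111 against 25.4 CPM) and Ccl4 (1491 against 35.8 CPM), inflammatory chemokines. The subset was 19 cells without leukemia vehicle 2, with Mcpt8 at 472 CPM, Car1 at 312 CPM, Ccl3 at 2217 CPM and Ccl4 at 3018 CPM, against 0.946, 1384, 44.7 and 60.9 CPM in the other 609 cells.

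The 15 genes of at least 50 CPM with the highest ratio of CPM in Ms4a2/Hdc cells over all other barcodes were Lgals7, Hdc, Ms4a2, Ephx2, 1700042O10Rik, Ptgr1, Cd200r3, Tnnt1, Bex4, Pmp22, Gata2, Cd200r4, C1qtnf12, Ddc and C2cd4a. Their ratios ran between 5.42 and 7.71. The rule chose cells by Hdc, Ms4a2, Bex4 and C1qtnf12, so their places among the 15 follow at least in part from it. Lgals7, a galectin, had 68.3 CPM against 8.87 CPM, and was found above 45 CPM in all 6 samples. Ddc, which decarboxylates aromatic amino acids and lies in the same enzyme family as Hdc, had 118 CPM against 21.7 CPM. Tnnt1, a troponin of slow muscle, had 120.2 CPM against 21.5 CPM. Set against the neighbours, the same genes differed less. Lgals7, which the rule did not use, stood 1.98 times as high. The rule genes Hdc and Ms4a2 stood 2.29 and 1.80 times as high, which is a description only. Of all genes at 5 CPM, 0.957% were at least 2 times as high (1.97% without leukemia vehicle 2). Without that sample 13 of the 15 were again among the 15 highest over other barcodes. These 13 include the rule genes Hdc, Ms4a2, Bex4 and C1qtnf12, whose return follows at least in part from the rule.

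Levels changed along the sum of Slc4a1, Alas2 and Rhd, with no large step at the limit that separates the cells from their neighbours. The rule used this sum, and each binned cell needed 5 UMIs of the 4 rule genes, Hdc and Ms4a2 among them. That minimum asks for a higher CPM in shallower cells, so the levels of Hdc and Ms4a2 are a description only. With 0 UMIs of Slc4a1, Alas2 and Rhd (188 cells) Hdc stood at 537 CPM, with 4 (217 cells) at 218 CPM, with 5 (196 neighbours, just outside the limit) at 203 CPM, and with 20 or more (131 neighbours) at 52.0 CPM. Ms4a2 stood at 485, 305, 319.9 and 84.9 CPM in the same 4 bins, Gata2 at 181, 101, 102 and 62.5 CPM, and Myb at 164, 130.0, 129.7 and 51.3 CPM. Hbb-bs went the other way, at 8197, 15983, 16588.5 and 111283 CPM, as did Tfrc, the transferrin receptor, at 22.3, 45.1, 48.8 and 142 CPM. Klf1 stood at 92.2, 114, 125 and 145 CPM, and Gata1 stayed between 75.9 and 92.5 CPM over all 10 bins. Median depth differed too, at 9271, 16619, 16775.5 and 20256 UMIs, and its part in the gradient was not tested. Granule RNA lay mostly in the first bin. With all samples pooled, Cpa3 had 136 CPM and Mcpt8 33.9 CPM with 0 of these UMIs, against 4.22 and 0 CPM with 4. The granule subset was high in Hdc and Gata2, and its part in their fall was not tested. Without leukemia vehicle 2, Hdc stood at 482, 214, 159 and 36.7 CPM and Ms4a2 at 395, 272, 241 and 54.4 CPM in these bins.

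**Figure D3:**
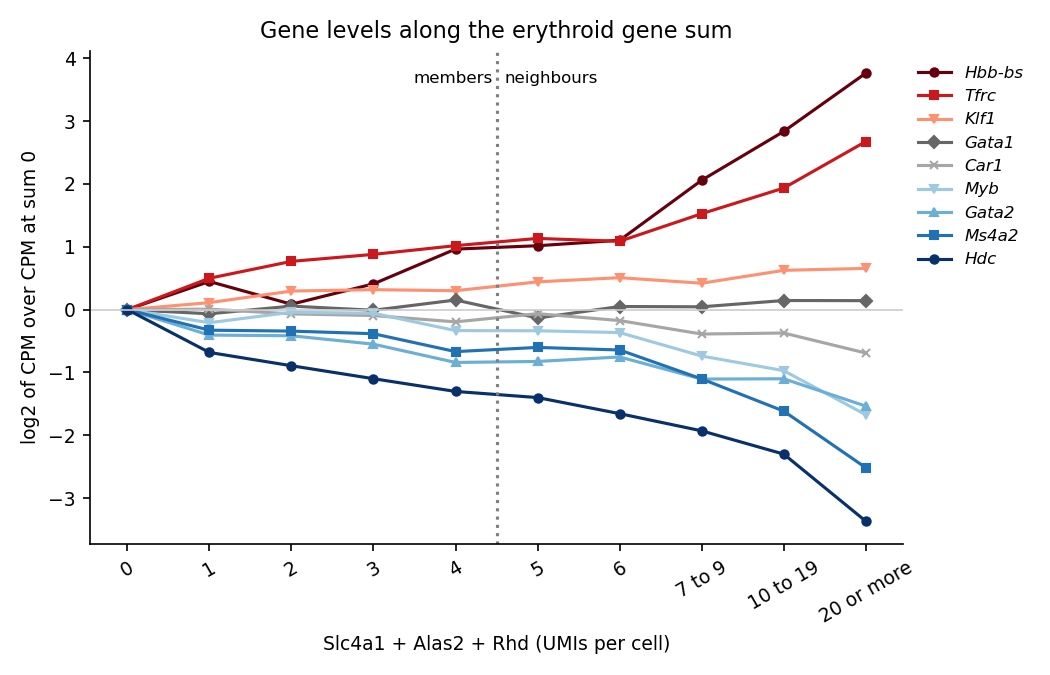
Level of 9 genes relative to cells with none of Slc4a1, Alas2 or Rhd (y axis, log2 of the CPM ratio) by the UMIs of those 3 genes (x axis). The dotted line separates Ms4a2/Hdc cells from neighbours. Hdc stood at 218 CPM just left of it and at 203 CPM just right of it, and Hbb-bs at 15983 and 16588.5 CPM. The rule used the genes of the x axis and Hdc and Ms4a2.

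The cells carried cell cycle RNA. At 2000 UMIs, Mki67, a marker of dividing cells, was found in 37.5% of Ms4a2/Hdc cells, 50.2% of neighbours and 3.88% of Siglech barcodes. The 16 G2/M genes summed to 2471 CPM in Ms4a2/Hdc cells, 3439.6 CPM in neighbours and 309 CPM in Siglech barcodes.

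The CD11c antibody tag, a protein measure outside the rule, was low. Its median count in Ms4a2/Hdc cells was 418 and 335 in leukemia panobinostat, 387 in WT panobinostat, 189 and 166 in leukemia vehicle and 534 in WT vehicle. In the other barcodes of the same samples it was 1512, 1795, 1732, 936.5, 1023 and 1877.5. The mean was 338 ± 141 in Ms4a2/Hdc cells and 1479 ± 406 in other barcodes (SD, n = 6 samples each), a mean difference of -1141 ± 291 counts, lower in 6 of 6 samples (two-sided exact sign-flip permutation, p = 0.03125, the smallest 6 pairs allow). The limits on H2-Ab1, Xcr1 and Clec9a remove dendritic cells, so part of this gap follows from the rule. With a top hashtag at least 5 times the second, leukemia vehicle 1 had 925 counts in Ms4a2/Hdc cells against 862 in others, the mean difference was -941 and the exact p was 0.0625. In the neighbours, which met the same dendritic limits but had more red cell RNA, the median was 711 and 436.5 in leukemia panobinostat, 206 in WT panobinostat, 243 and 179 in leukemia vehicle and 564 in WT vehicle. The Ms4a2/Hdc cells were below the neighbours in 5 of 6 samples and above them in WT panobinostat. The Siglec-H tag had medians between 235 and 250.5 counts in Ms4a2/Hdc cells and between 248 and 303 in other barcodes of the 6 samples.

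The share of Ms4a2/Hdc cells was far higher in 1 sample than in the others. It was 1.43% (57 of 3988 barcodes) and 1.69% (48 of 2848) in leukemia panobinostat, and 3.69% (159 of 4304) in WT panobinostat. It was 1.72% (77 of 4469) and 19.3% (498 of 2580) in leukemia vehicle, and 2.65% (287 of 10823) in WT vehicle. The neighbours were also highest in leukemia vehicle 2, at 13.9% of its barcodes. They were 1.53 and 2.25% in leukemia panobinostat, 6.67% in WT panobinostat, 1.95% in leukemia vehicle 1 and 2.49% in WT vehicle. For Ms4a2/Hdc cells, the exact 95% binomial interval, which covers counting error only, was 1.08 to 1.85% in leukemia panobinostat 1 and 17.8 to 20.9% in leukemia vehicle 2. Shares averaged 2.27% ± 1.24 with panobinostat and 7.89% ± 9.89 with vehicle (SD, n = 3 each), a difference of -5.62 points (two-sided exact permutation test, p = 0.5, adjusted over 2 comparisons 0.8, smallest possible 0.1). They averaged 6.04% ± 8.85 in leukemia (n = 4) and 3.17% ± 0.737 in WT (n = 2), a difference of 2.86 points (exact permutation p = 0.8, adjusted 0.8, smallest possible 0.133). Without leukemia vehicle 2 both differences changed sign. They were then 0.0823 points for panobinostat over vehicle (exact permutation p = 1, 3 against 2 samples) and -1.56 points for leukemia over WT (exact permutation p = 0.2, the smallest possible, 3 against 2 samples).

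The hashtag limit moved these shares. Where the top tag was at least 5 times the second, 48 of the 498 cells of leukemia vehicle 2 were left, and its share was 3.58%. The others were then 0.801% and 1.36% in leukemia panobinostat, 1.27% in WT panobinostat, 0.887% in leukemia vehicle 1 and 1.84% in WT vehicle. The differences were then -0.960 points for panobinostat over vehicle and 0.102 points for leukemia over WT. The share of cells lost at that limit was 90.4% in leukemia vehicle 2 and between 39.6 and 76.1% in the other 5 samples.

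**Figure D4:**
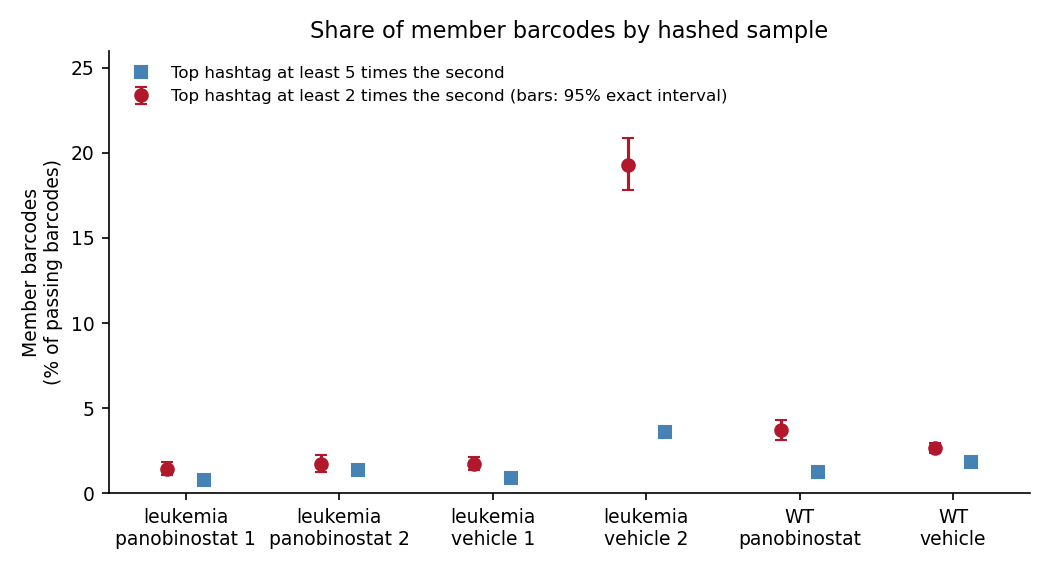
Share of Ms4a2/Hdc cells among passing barcodes (y axis, percent) in each hashed sample (x axis), at 2 limits on the top hashtag. Leukemia vehicle 2 stood at 19.3% with a ratio of at least 2 and at 3.58% with a ratio of at least 5.

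Panobinostat changed no gene past the threshold in these cells. UMIs were summed per sample and tested with edgeR's quasi-likelihood test with disease state as a term. Of 8624 genes, 0 were called at a Benjamini-Hochberg adjusted p under 0.05 (0% in either direction), 156 had an unadjusted p under 0.05, and DESeq2 called 0. The biological coefficient of variation was 18.3%. Without leukemia vehicle 2, 3 genes were called: Ccl3 and Ccl4 were lower and S100a6 higher with panobinostat. With the granule subset also left out, S100a6 alone was called, and Ccl3 and Ccl4 were not. With doublet-scored cells left out in its place, all 3 were called again among 10 calls. With no filter on low counts, 78 were called.

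Red cell and mast cell regulators showed small differences with panobinostat. Klf1 had 96.5 and 107 CPM in leukemia panobinostat and 98.3 CPM in WT panobinostat, against 96.1 and 116 CPM in leukemia vehicle and 106 CPM in WT vehicle. The groups overlapped, with a log2 fold change of -0.07 (SE 0.12). Myb, a factor of immature blood cells, had 128 and 101 CPM in leukemia panobinostat and 128 CPM in WT panobinostat, against 141 and 166 CPM in leukemia vehicle and 143 CPM in WT vehicle. Its groups did not overlap (log2 fold change -0.30, SE 0.13), but it was not called. How many of all genes had no overlap was not counted, for Myb or for Gin1 below. Gata2 had a log2 fold change of -0.18 (SE 0.16) and Kit of 0.15 (SE 0.30), and the groups of both overlapped. Genes that the rule used are left out of the counts by list. Of 30 erythroid genes tested, 15 were above and 15 below 0 with a median of -0.01, beside a median of 0.00 over all genes, and 0 were called. Of 10 progenitor genes tested, Myb among them, 4 were above and 6 below 0 with a median of -0.004. They ran between -0.30 and 1.57, and 0 were called. Of 20 mast and basophil genes tested, 6 were above and 14 below 0 with a median of -0.17, and 0 were called. Without leukemia vehicle 2, 15 erythroid genes were above and 15 below 0 (median -0.01), and 6 progenitor genes above and 3 below (median 0.05). Of mast and basophil genes, 2 were then above and 16 below 0 (median -0.19), and 0 genes of these lists were called.

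All 16 G2/M genes had negative log2 fold changes, as did 4252 of all 8624 genes. The 16 had a median of -0.29, and 0 were called. Their summed level was 1719 and 2051 CPM in leukemia panobinostat and 1905 CPM in WT panobinostat, against 1738 and 2873 CPM in leukemia vehicle and 2368 CPM in WT vehicle. The groups overlapped through leukemia vehicle 1. Without leukemia vehicle 2, 15 of the 16 were negative with a median of -0.15. Mki67 had a log2 fold change of -0.23 (SE 0.15). Of the 23 interferon-stimulated genes tested, 7 were above and 16 below 0 with a median of -0.10, and 0 were called. Without leukemia vehicle 2, 4 of these genes were above and 13 below 0 with a median of -0.10. Of 12 genes known to respond to deacetylase inhibitors, 11 were above 0 with a median of 0.14, and 6 of 12 were above 0 without leukemia vehicle 2.

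S100a6, a small calcium-binding protein, shows how few cells set some of these values. It and the other genes of this paragraph and of the paragraph on leukemia calls were picked after their values were seen. It had 111 and 87.4 CPM in leukemia panobinostat and 254 CPM in WT panobinostat, against 49.9 and 13.3 CPM in leukemia vehicle and 87.5 CPM in WT vehicle. The log2 fold change was 1.84 (SE 0.40) and was not called over all samples, and it was 1.40 (SE 0.14, edgeR adjusted p = 3.07e-05) without leukemia vehicle 2. In WT panobinostat 1 cell held 400 of the 597 UMIs. Gin1, an integrase-derived gene, had 10.4 and 10.7 CPM in leukemia panobinostat and 11.9 CPM in WT panobinostat, against 27.3 and 23.4 CPM in leukemia vehicle and 23.5 CPM in WT vehicle. Its groups did not overlap and no cell held more than 4 UMIs. The log2 fold change was -1.08 (SE 0.21), and it was not called.

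**Figure D5:**
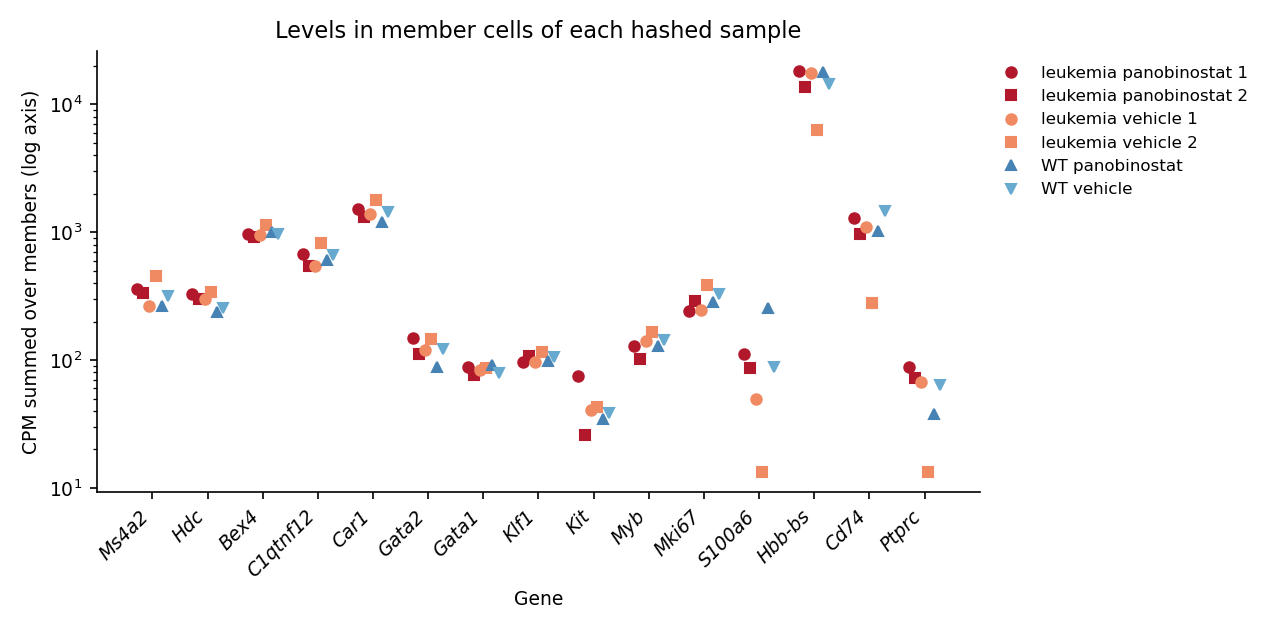
Level of 15 genes (x axis) in Ms4a2/Hdc cells of each hashed sample (y axis, CPM of summed UMIs, log scale). Gata1 lay between 76.7 and 90.7 CPM in all 6 samples, while leukemia vehicle 2 had the lowest S100a6 (13.3 CPM), Cd74 (278 CPM), Ptprc (13.3 CPM) and Hbb-bs (6291 CPM).

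Leukemia against WT also gave no call. Of 8624 genes, 0 passed (0%), 88 had an unadjusted p under 0.05, and DESeq2 called 0. With no filter on low counts, 41 were called. The interaction of disease with treatment gave 0 calls of 9180 genes tested (0%), with 214 at an unadjusted p under 0.05. That fit had 2 residual degrees of freedom, and its spread came from the leukemia samples alone, since WT had 1 sample per treatment. Hist1h2bc, a core histone gene, had 52.2, 70.5, 96.1 and 76.8 CPM in leukemia (panobinostat 1 and 2, vehicle 1 and 2), against 121 and 134 CPM in WT (panobinostat, vehicle). Its log2 fold change was -0.83 (SE 0.16), and it was not called. It was -0.15 at a hashtag ratio of 5, and -0.75 (edgeR adjusted p = 0.0256) without leukemia vehicle 2, where it was called. Of 30 erythroid genes, 6 were above and 24 below 0 with a median of -0.10, and of 13 genes tied to leukemia, 9 were above 0 with a median of 0.07. The median over all genes was -0.01, with 4043 above and 4581 below 0 (3464 and 3580 without leukemia vehicle 2). Without leukemia vehicle 2, 8 erythroid genes were above and 22 below 0 (median -0.06). Of 12 genes tied to leukemia, 9 were then above 0 with a median of 0.19. Of mast and basophil genes, 0 of 20 were called over all samples. Without that sample 2 of 18 were called, Fcer1g and Mcpt2, beside 34 of all 7044 genes. With the granule subset also left out, Fcer1g was called and Mcpt2 was not. Calls without that sample were not particular to this list. They were 2 of 12 genes known to respond to deacetylase inhibitors, 2 of 14 immediate early response genes and 1 of 9 dendritic genes. Of 30 erythroid and 9 progenitor genes, 0 were called.

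Without leukemia vehicle 2, 34 genes passed between leukemia and WT, 30 of them higher in leukemia. They included Ccl3 (log2 fold change 2.31, SE 0.15) and Ccl4 (2.20, SE 0.15), and Ccr7 (1.10, SE 0.14), the homing receptor of mature dendritic cells. Cst3 (-0.56, SE 0.10), abundant in dendritic cells, and Apoe (-1.19, SE 0.24) were lower. The UMIs of Ccl4 sat in few cells: the 5 highest cells held 95.4% and 76.5% in leukemia panobinostat, 94% in WT panobinostat, 71% in leukemia vehicle 1 and 66.5% in WT vehicle. With the granule subset also left out, 26 of the 34 were called again, Ccl3 and Ccl4 among them (1.71 and 1.70). With the doublet-scored cells left out in its place, 17 of the 34 were called again among 27 calls. RNA of dendritic cells moved with leukemia vehicle 2: the 10 MHC class II genes other than H2-Ab1 summed to 2710 and 1863 CPM in leukemia panobinostat, 1993 CPM in WT panobinostat, 2166 and 593 CPM in leukemia vehicle and 2842 CPM in WT vehicle. The 13 dendritic genes outside the rule summed to between 750.1 and 2633 CPM in the 6 samples, against 23608 CPM in Siglech barcodes, and their part in these results was not tested.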

How the data were processed

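The authors deposited 1 sparse matrix of raw UMI counts, whole numbers that cover genes, 6 hashtags and 2 antibody tags for every barcode. The submitters' processing notes name Cell Ranger 3.1.0, Seurat 3.1.0, mm10 and GRCm38, without their roles. No read was realigned, and 0 columns were left unused.

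The members and gene lists were chosen with earlier results of these data known. Named genes were the rule genes and markers, defining genes of the progenitor, mast and erythroid lists, the 15 leading genes by ratio, and any called genes; others were chosen after their values were seen and are marked so. Condition came from the hashtag names. Hashed samples shared 0 barcodes. Summed UMIs were tested with edgeR 4.0.16 (TMM, filterByExpr, disease and treatment as terms, 3 residual degrees of freedom) and DESeq2 1.42.0 in R 4.3.3; the edgeR script was tested on simulated data. Summed UMIs per sample were between 652228 and 7991976. Shares and tag counts were tested by exact permutation. Doublets were scored by similarity to simulated pairs, with a limit of 0.7 set after the scores were seen; scored cells stayed in the main results. Python 3.11.15 and scikit-learn 1.9.0 were used. Alternatives changed the gene, mitochondrial, hashtag, marker and doublet limits, the normalization, the low-count filter, the depth, the denominator and the samples. Positions came from GENCODE vM21, matched by gene identifier. UMI counts are of 3' ends and were not scaled by length.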

Additional observations from a re-analysis of the deposited data

Results flagged for a closer look

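The share of Ms4a2/Hdc cells in leukemia vehicle 2, 19.3%, stood apart from the other 3 leukemia samples, which lay between 1.43 and 1.72%. The gap to its nearest neighbour was 0.984 of the whole range, above the limit of 0.829 for 4 samples, a limit that chance passes in about 1 of 20 groups. With the top tag at least 5 times the second, the share was 3.58%. The neighbours were also highest in leukemia vehicle 2, at 13.9% of its barcodes, against 1.53 to 2.25% in the other 3 leukemia samples.

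The leukemia vehicle 2 hashtag, which assigns barcodes to that sample, had a median of 28 counts in Ms4a2/Hdc cells assigned to other samples, against 5 in other barcodes. It was 8 in the neighbours and 6 in the late erythroid barcodes assigned to other samples. In barcodes assigned to leukemia vehicle 2, its median was 75 in Ms4a2/Hdc cells and 73 in neighbours, against 352 in other barcodes.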

How the results depend on the processing

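Shares kept their direction under all alternatives except 1: without leukemia vehicle 2 the panobinostat difference was 0.0823 points and the leukemia difference -1.56 points. Leaving out each sample in turn gave between -8.71 and 0.0823 points for panobinostat and between -1.56 and 4.40 points for leukemia. The CD11c difference was -941 counts (exact permutation p = 0.0625) at a hashtag ratio of 5, and with 1 sample left out it lay between -1219.9 and -1077 counts (exact permutation p = 0.0625, the smallest 5 pairs allow). Gene calls with panobinostat were 0 in the report, 78 with no filter on low counts, between 0 and 3 with 1 sample left out, 1 with doublets left out, 1 with the granule subset and leukemia vehicle 2 left out, and 10 with doublets and leukemia vehicle 2 left out. Calls between leukemia and WT were 0 in the report, 41 with no filter, between 0 and 34 with 1 sample left out, 1 at a hashtag ratio of 5, 1 with doublets left out, 26 with the granule subset and leukemia vehicle 2 left out and 27 with doublets and leukemia vehicle 2 left out. The cause of these shifts was not tested. Ccl4 between leukemia and WT (log2 fold change 1.55) lay between -0.36 and 2.53 with 1 sample left out, was -0.36 without leukemia vehicle 1, and was -0.50 at a hashtag ratio of 5, and Hbb-bs with panobinostat (0.40) was -0.14 at that ratio. Hist1h2bc between leukemia and WT (-0.83) was -0.15 at that ratio. The values pooled without leukemia vehicle 2, the ratio of 3 and the settings that leave out the granule subset, or doublets together with leukemia vehicle 2, were chosen after seeing the data. In the leukemia samples alone, 0 genes were called with the replicate number as a block and 0 without it; the numbers did not pair the samples (correlation of deviations -0.035). With 48 to 498 cells a sample, depth limits the low genes.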
